A study of Mus musculus with 4 samples.

Results

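Granzymes and perforin are the killing proteins of cytotoxic lymphocytes, and the genes followed here were Gzma, Gzmb, Gzmc, Gzmd, Gzme, Gzmf, Gzmk and Prf1. They were chosen by name, and all 8 were among the 19059 genes of the deposited single-cell count matrices. Their levels were described in CD8+ T cells, conventional CD4+ T cells, regulatory T cells (Tregs), natural killer (NK) cells and type 1 innate lymphoid cells (ILC1) from MC38 tumors. MC38 is a transplantable mouse colon carcinoma line, and the hosts were C57BL/6 mice humanized for CTLA-4 (B-hCTLA-4). Per the records, 3 treatments began at a tumor volume of 100 mm3. Tumors were taken on day 8 after the start of treatment, and 11 mice were pooled into 1 library per group. No age was given for the B-hCTLA-4 mice in particular in the sources used here.

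The 4 groups were an isotype control (10 mg/kg), an antibody to human CTLA-4 (ipilimumab, human IgG1), an antibody to mouse FcγRII, the inhibitory Fc receptor (AT130-2 on mouse IgG1 with the N297A change that silences the Fc part), and both antibodies together (10 and 20 mg/kg). For the 2 libraries of a single antibody, the sample title and the treatment field name opposite antibodies. They are therefore called the CTLA-4-titled and the FcγRII-titled library, and nothing below depends on which of them received which antibody. With 1 library per group, no treatment difference could be tested, and the values below describe these 4 libraries. Unless stated otherwise, 4 values are in the order isotype control, CTLA-4-titled, FcγRII-titled and combination.

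Cytotoxic lymphocytes store granzymes, a family of serine proteases, with perforin in secretory granules and release both toward a bound target cell. Perforin, encoded by Prf1, forms pores through which granzymes enter the target. Granzyme B cleaves caspases and other substrates after aspartate, and granzymes A and K cleave after basic residues. Gzmc, Gzmd, Gzme and Gzmf belong to a rodent expansion of the granzyme B gene cluster, are known from strongly activated T and NK cells, and their substrates are less well defined.

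Live CD45+ cells were sorted after a density gradient, fixed and profiled with hybridizing probes (Chromium Flex), so that a unique molecular identifier (UMI) counts a ligated probe pair. Levels of different genes depend on their probes. Where ratios, sums or shares of cells of different genes are set together below, they carry this limit. The libraries held 6097 to 8173 cells and 129151823 to 196362818 UMIs each, and 5779 to 7741 cells per library were kept. No full cell barcode occurred in more than 1 library, whereas 2119 to 2568 barcodes per library were shared with another library once the part that names the probe set was left out. Cells were clustered without the granzyme and perforin genes, and cells of T or of NK and ILC1 clusters were then assigned by marker UMIs. CD8+ T cells had Cd8a or Cd8b1, conventional CD4+ T cells had Cd4, and Tregs had Cd4 and Foxp3. NK cells had Eomes and neither Itga1 nor Cd200r1, and ILC1 had Itga1 or Cd200r1 and no Eomes. A further class, defined after seeing the data, held cells of the same clusters with Eomes and an ILC1 marker together, named double-positive cells here. Levels are UMIs of a gene per 1000000 UMIs of the class in a library (CPM). Cd3e and Ncr1, an NK and ILC1 receptor, were among the markers that named the clusters, so their levels are no independent check of the names. Cd3e was at 944 to 1750 CPM in CD8+ T cells, 0 to 9.26 in NK cells, 25.1 to 103 in ILC1 and 4.68 to 96.9 in double-positive cells. Ncr1 was at 822 to 1320 in NK cells and ILC1.

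There were 132, 337, 106 and 252 CD8+ T cells, 130, 195, 41 and 104 conventional CD4+ T cells, and 109, 50, 60 and 9 Tregs. NK cells numbered 148, 182, 83 and 150, ILC1 46, 64, 43 and 79, and double-positive cells 89, 116, 79 and 135. Together with cells that had neither marker, all NK and ILC1 cells numbered 340, 424, 232 and 433. Double-positive cells were also the deepest of the 3 NK and ILC1 classes, with median UMI counts of 9768, 6781, 10420 and 13585 against 3559 to 4038.5 in NK cells. All 13 monocyte and macrophage markers were detected in every class. They took 0.916% to 2.36% of the UMIs of CD8+ T cells, 0.425% to 2.16% in Tregs, 0.124% to 0.681% in NK cells and 0.341% to 1.15% in double-positive cells. In NK cells, the marker Ccr2 was at 739, 825, 998 and 801 CPM and the marker Csf1r at 117, 6.91, 250 and 133, so Ccr2 did not follow Csf1r. A cluster with T cell and macrophage genes together was kept out of the classes, at 10.9%, 4.15%, 6.33% and 9.56% of the kept cells.

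In GRCm38, Gzmb, Gzmc, Gzmf, Gzmd and Gzme lie in 1 cluster on the minus strand of chromosome 14, between 56117626 (Gzme) and 56262260 (Gzmb), with Gzmg and Gzmn among them. Gzma (113093825 to 113100981) and Gzmk (113171608 to 113225908) lie on the minus strand of chromosome 13, and Prf1 (61297833 to 61304680) lies on the plus strand of chromosome 10. The coding sequences of Gzmd and Gzme were 93.5% identical with a longest shared run of 96 bases, so probes for one could in principle read the other, and their separate values are uncertain to that extent. Gzmd and Gzmf were 83.7% identical, Gzmc and Gzmd 73.0%, and Gzmb and Gzmc 76.6%. Gzme and Gzmg were 89.5% identical with a shared run of 90 bases. Gzmc shared runs of 52 bases with Gzmd and 68 with Gzme, so the same limit holds for these genes. Reading of a related gene by a probe was not tested. The 250 bases before the RefSeq transcription start (GRCm38.p6) are shown for these 5 genes, because Gzmc, Gzmd and Gzme were often detected in the same cells while Gzmb had a different distribution over the classes. Capitals mark matches to a Runx motif (TGTGGT, or ACCACA on the other strand), an AP-1 motif (TGANTCA), a short T-box motif (TCACAC or GTGTGA) and a cyclic AMP response motif (TGACGTCA, added after the sequences were seen).
Gzmb (chr14:56262335-56262584, minus strand): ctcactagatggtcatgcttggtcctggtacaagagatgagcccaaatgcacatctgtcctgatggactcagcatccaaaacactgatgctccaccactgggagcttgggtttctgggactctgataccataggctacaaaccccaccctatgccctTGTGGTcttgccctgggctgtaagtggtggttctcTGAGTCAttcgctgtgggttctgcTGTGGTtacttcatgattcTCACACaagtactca
Gzmc (chr14:56234658-56234907, minus strand): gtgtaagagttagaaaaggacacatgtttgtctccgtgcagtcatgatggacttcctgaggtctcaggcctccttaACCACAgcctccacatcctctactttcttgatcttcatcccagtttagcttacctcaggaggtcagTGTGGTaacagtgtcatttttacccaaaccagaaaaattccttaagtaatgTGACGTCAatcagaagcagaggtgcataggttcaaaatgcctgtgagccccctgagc
Gzmd (chr14:56132594-56132843, minus strand): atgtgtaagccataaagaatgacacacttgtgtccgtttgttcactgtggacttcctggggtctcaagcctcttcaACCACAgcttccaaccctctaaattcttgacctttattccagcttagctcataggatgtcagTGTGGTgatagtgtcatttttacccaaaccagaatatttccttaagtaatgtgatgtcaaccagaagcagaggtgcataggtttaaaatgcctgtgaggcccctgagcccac
Gzme (chr14:56120626-56120875, minus strand): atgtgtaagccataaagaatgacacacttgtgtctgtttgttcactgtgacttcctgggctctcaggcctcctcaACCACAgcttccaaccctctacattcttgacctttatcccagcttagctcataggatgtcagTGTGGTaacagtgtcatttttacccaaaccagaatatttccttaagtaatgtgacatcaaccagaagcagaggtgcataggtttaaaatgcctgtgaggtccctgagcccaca
Gzmf (chr14:56211408-56211657, minus strand): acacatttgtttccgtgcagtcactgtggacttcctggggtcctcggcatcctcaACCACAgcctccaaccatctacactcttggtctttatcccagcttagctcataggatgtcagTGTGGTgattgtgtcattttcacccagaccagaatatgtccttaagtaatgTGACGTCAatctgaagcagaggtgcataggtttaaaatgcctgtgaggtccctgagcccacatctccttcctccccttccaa

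The windows of Gzmd and Gzme were 94.8% identical. The window of Gzmc was 81.3% identical to that of Gzmd and 50.2% identical to that of Gzmb. The Gzmb window reaches down to 56262335, whereas the GENCODE gene ends at 56262260. It therefore lacks the bases next to the GENCODE start, while the other windows reach to or near theirs. The identity to Gzmb and the letters found in its window depend on the start chosen. Each of the 5 windows held the Runx letters 2 times, which 14.05% of the 32851 RefSeq promoter windows held at least once. Prf1 and Gzma held them 1 time each and Gzmk did not. TGACGTCA occurred in Gzmc and Gzmf, as in 1.55% of all windows, and the windows of Gzmd and Gzme did not hold these letters. The AP-1 letters (6.75% of windows) and TCACAC (12.3%) were found in Gzmb alone of the 5. The other searched motifs, the longer T-box GGTGTGA (3.33%) and the STAT5 letters TTCNNNGAA (7.02%), matched in none of the 5. These matches describe the letters of the reference only.

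The members differed in how their levels were distributed over the classes.

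**Figure D1:**
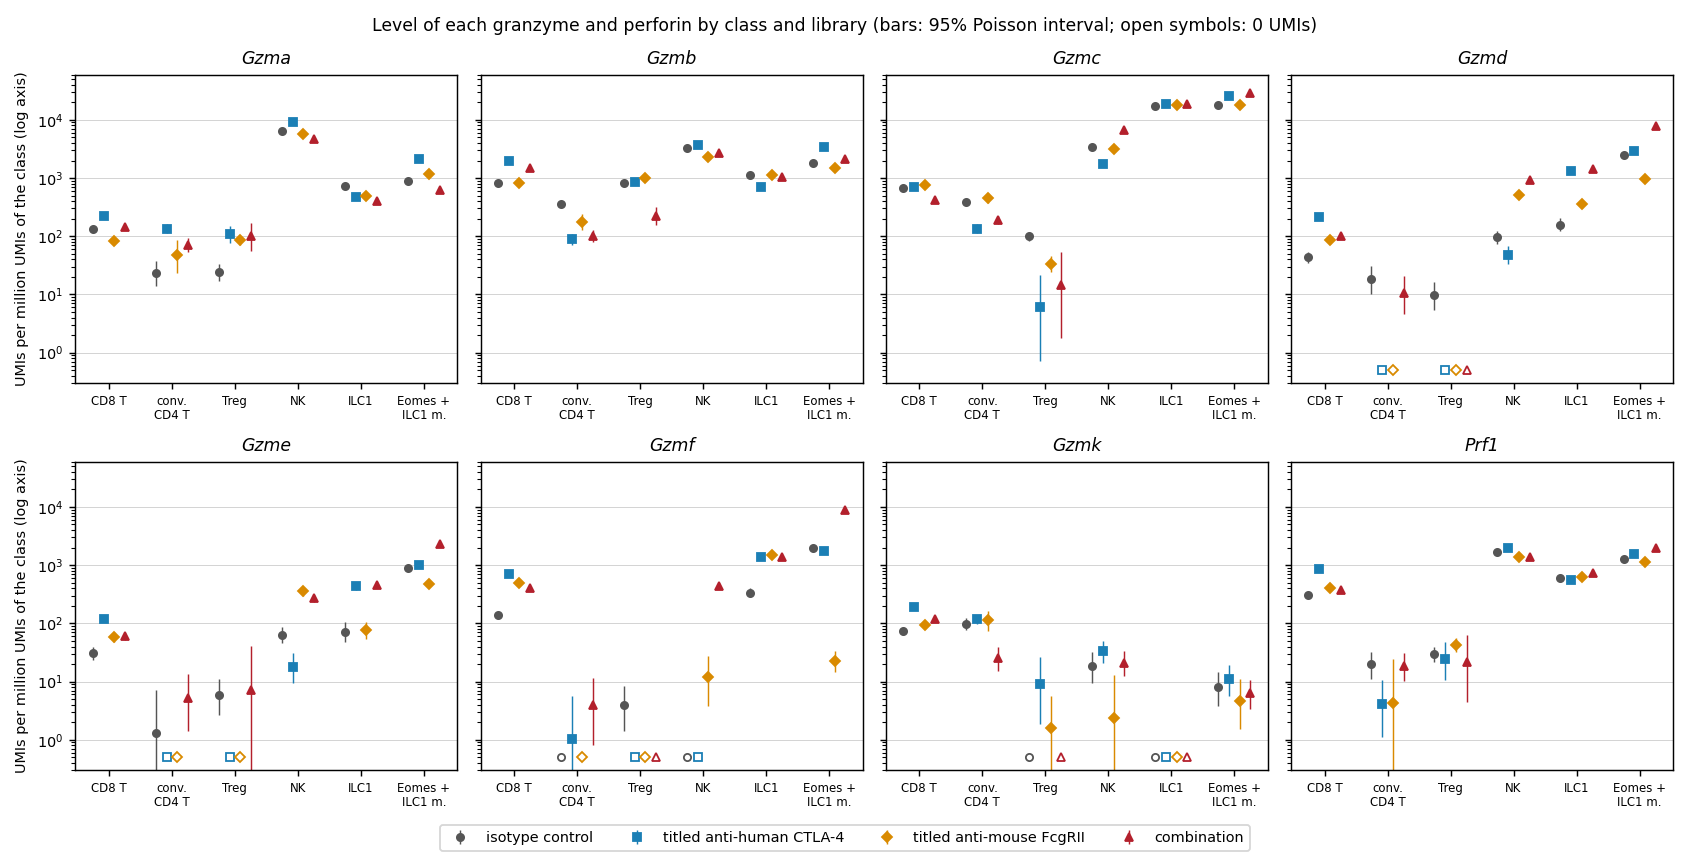
Level of each of the 8 genes (CPM, log axis) in 6 classes, with 1 symbol per library, 95% Poisson bars for counting error, and open symbols near the lower edge for 0 UMIs. Of the 6 classes plotted, Gzma was highest in NK cells of all 4 libraries (4723 to 9272), Gzmc in ILC1 and double-positive cells (17060 to 29230), and Gzmk was at 0 UMIs in ILC1 of all 4.

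Gzma was highest in NK cells among the 5 classes. NK cells held 6522, 9272, 5773 and 4723 CPM of Gzma. Cells of the same clusters with neither an Eomes nor an ILC1 marker UMI, which were not assigned to NK cells or ILC1, had similar levels of 4504, 8271, 7347 and 6063, above NK cells in the FcγRII-titled library and the combination. Double-positive cells followed with 892, 2098, 1170 and 617, and ILC1 with 722, 466, 493 and 400. CD8+ T cells had 133, 226, 82.3 and 142, below ILC1 in all 4 libraries. Conventional CD4+ T cells (23.6 to 135) and Tregs (24.1 to 109) overlapped CD8+ T cells, and in Tregs 1 cell gave 57.1% to 97.3% of the UMIs. With every NK cell thinned to 1993 UMIs, 87.6%, 93.1%, 85% and 83% of NK cells had a Gzma UMI. At the same depth, 0.382% to 1.88% of the cells of monocyte, macrophage and dendritic clusters did. These clusters are called monocytes and macrophages here and served as the background. The part of free RNA in that background was not tested. As deposited, the median depth was 3559 to 4038.5 UMIs in NK cells and 14446 to 19973 in monocytes and macrophages. The order of NK cells over double-positive cells and ILC1 held in all 4 libraries, and the ranges of NK cells and double-positive cells over the 4 libraries did not overlap.

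Gzmb, the aspartate-specific granzyme, was spread over more classes than Gzma. NK cells had 3248, 3732, 2286 and 2651 CPM of Gzmb, double-positive cells 1819, 3350, 1508 and 2086, and CD8+ T cells 822, 1991, 811 and 1480. Its levels in ILC1 were 1121, 690, 1129 and 1027, which overlapped those of CD8+ T cells. Tregs had 824, 855, 1009 and 226, and conventional CD4+ T cells 360, 89.2, 177 and 102, The Treg value of the combination library rests on 31 UMIs in 9 cells. A Gzmb UMI was found in 57.4%, 26.7%, 59.4% and 28.2% of Tregs thinned to 2939 UMIs, with a 95% exact interval of 3.19% to 65.1% in the combination library.

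Prf1 separated NK cells, ILC1 and CD8+ T cells from both classes of CD4+ T cells. NK cells had 1651, 1945, 1403 and 1380 CPM of Prf1, double-positive cells 1284, 1557, 1148 and 1954, ILC1 598, 566, 615 and 746, and CD8+ T cells 308, 851, 406 and 380. Tregs had 29.3, 24.2, 42.2 and 21.9, and conventional CD4+ T cells 19.7, 4.10, 4.32 and 18.4. The ranges of NK and double-positive cells overlapped, as did those of ILC1 and CD8+ T cells, whereas CD8+ T cells and Tregs did not overlap. Thinned shares of cells with a Prf1 UMI were 83.2% to 88.7% in NK cells, 81.4% to 87.6% in double-positive cells and 39.6%, 57.5%, 46.1% and 47.0% in CD8+ T cells.

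Gzmc was the granzyme of ILC1 and double-positive cells. ILC1 held 17060, 18360, 18100 and 18990 CPM of Gzmc, a narrow range over the 4 libraries, and double-positive cells held 18240, 25680, 17700 and 29230. NK cells held 3441, 1752, 3207 and 6564, of which the 5 cells with most UMIs gave 56.4% to 90.7%. In CD8+ T cells Gzmc was at 670, 703, 758 and 416, in conventional CD4+ T cells at 387, 134, 463 and 193, and in Tregs at 99.0, 6.04, 33.4 and 14.6. The share of cells with a Gzmc UMI after thinning was 73.8%, 77.5%, 84.0% and 82.2% in ILC1 and 22.7%, 12.9%, 19.2% and 23.9% in NK cells.

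Like Gzmc, Gzmd, Gzme and Gzmf had their highest mean levels over the libraries in double-positive cells and ILC1. They were found in fewer NK and ILC1 cells than Gzmc. Double-positive cells had 2470, 2965, 972 and 7689 CPM of Gzmd, ILC1 158, 1312, 356 and 1457, and NK cells 95.7, 48.4, 518 and 924. Gzme followed with 882, 1012, 476 and 2294 in double-positive cells and 72.5, 430, 75.7 and 453 in ILC1, and NK cells had 18.0 to 356. The NK sums rest on few cells: a Gzmd UMI was found in 3, 2, 2 and 17 NK cells and a Gzme UMI in 2, 2, 2 and 12. Gzmf was at 2000, 1727, 22.5 and 8931 in double-positive cells and at 336, 1407, 1484 and 1394 in ILC1. These sums were uneven between cells: in ILC1, the 5 cells with most UMIs gave 86.0% to 100% of the Gzmf UMIs. In CD8+ T cells Gzmf was at 137, 700, 487 and 411, Gzmd at 43.1 to 213 and Gzme at 30.5 to 119. NK cells had 0 to 445 of Gzmf, with a lower mean (114) than CD8+ T cells (434). For Gzmc the mean was higher in NK cells (3740) than in CD8+ T cells (637). In Tregs and conventional CD4+ T cells Gzmd did not exceed 18.4, Gzme 5.25 and Gzmf 3.94.

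Gzmk had its highest mean levels over the libraries in CD8+ and conventional CD4+ T cells. CD8+ T cells had 73.7, 190, 93.2 and 117 CPM of Gzmk and conventional CD4+ T cells 98.3, 117, 112 and 24.9, and these ranges overlapped. NK cells had 18.5, 33.2, 2.35 and 21.1, double-positive cells 4.68 to 11.0 and Tregs 0 to 9.07. ILC1 had 0 UMIs in each library, which allows at most 4.07 to 7.77 CPM. Among thinned cells, 17.7%, 29.0%, 18.1% and 24.2% of CD8+ T cells had a Gzmk UMI, against 0.0555% to 0.457% of monocytes and macrophages at that depth.

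The classes were compared within libraries, with the counts summed per class and library, the library as a block and edgeR's quasi-likelihood test over 9339 genes (adjusted p by Benjamini-Hochberg). The 4 libraries serve as replicates, each a pool of mice with a different treatment.

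**Figure D2:**
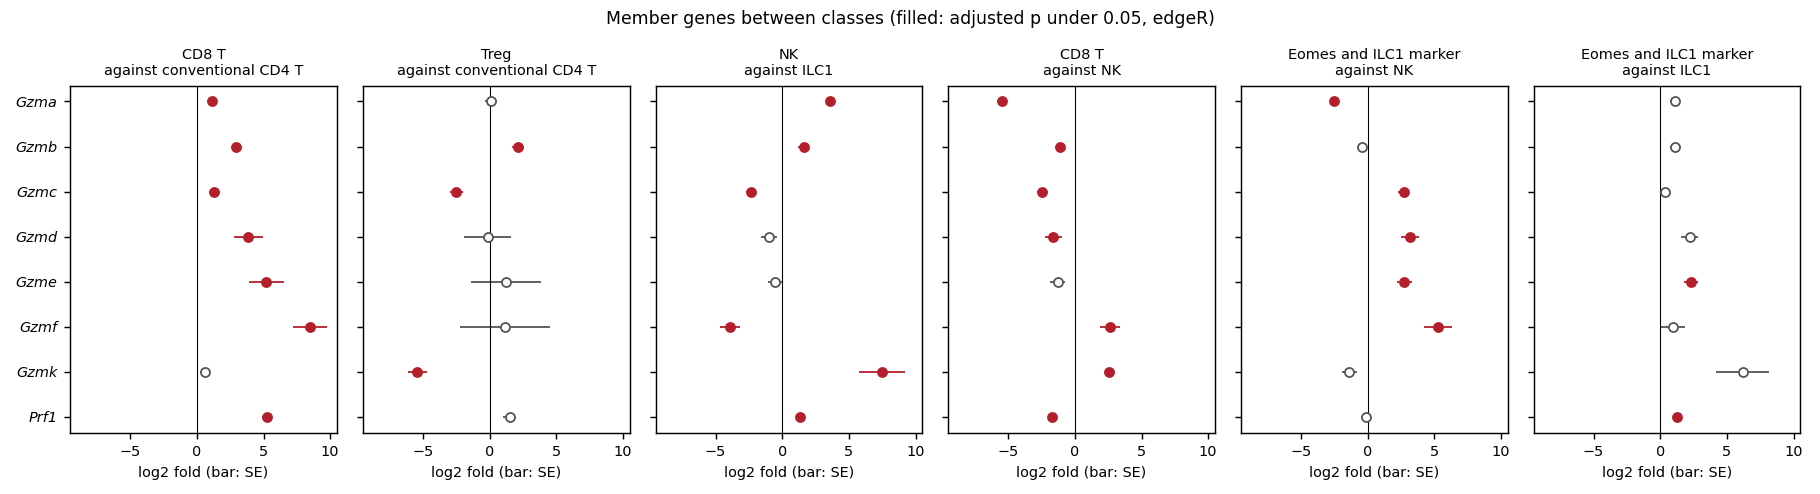
Log2 fold of each member between 2 classes with its standard error, in 6 panels, filled where the edgeR adjusted p was under 0.05. Of the 8 members 7 were higher in CD8+ than in conventional CD4+ T cells, and NK cells and ILC1 divide the members between them. Gzmk had 0 UMIs in ILC1, so its fitted folds against ILC1 carry no size.

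Against conventional CD4+ T cells, 7 of the 8 members were higher in CD8+ T cells and none was lower, where 14.5% of all genes were higher, 13.2% lower and 27.7% either. Prf1 differed by 5.27 ± 0.38 (SE) on the log2 scale (edgeR adjusted p = 5.2e-08), Gzmb by 2.96 ± 0.43 (9.16e-05) and Gzmf by 8.46 ± 1.28 (0.000124). Conventional CD4+ T cells held 0, 1, 0 and 3 Gzmf UMIs, so the fitted Gzmf fold carries no size. They held 15, 4, 1 and 14 Prf1 UMIs, so the size of the Prf1 fold is uncertain. Gzma (1.12 ± 0.38, adjusted p = 0.034) and Gzmc (1.31 ± 0.40, 0.0207) were the weakest of the 7. Without the isotype, FcγRII-titled or combination library Gzma did not pass (0.0565 to 0.0831), and without the CTLA-4-titled library Gzmc did not (0.0969). Gzmk gave 0.57 ± 0.32 (adjusted p = 0.19).

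Between Tregs and conventional CD4+ T cells, 3 members passed, where 11.7% of genes did (5.78% higher and 5.94% lower in Tregs). Gzmb was higher in Tregs by 2.14 ± 0.43 on the log2 scale (edgeR adjusted p = 0.00293). Gzmk fell by 5.41 ± 0.72 from conventional CD4+ T cells to Tregs (0.00016), and Gzmc fell by 2.50 ± 0.48 (0.00236). Tregs held 0, 3, 2 and 0 Gzmk UMIs, so the fitted Gzmk fold carries no size. The Gzmc difference rests on few cells, since 1 cell gave 58.0% to 85.4% of the Gzmc UMIs of conventional CD4+ T cells, and without the FcγRII-titled library its adjusted p was 0.0676. With cells chosen by marker UMIs alone, without clusters, its sign turned, to 0.93 on the log2 scale. Prf1 stood at the threshold with 1.51 ± 0.49 (0.0502).

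NK cells and ILC1 divided the granzymes. Of the 8, 4 were higher in NK cells (6.05% of all genes) and 2 in ILC1 (5.36%). Gzma was higher in NK cells by 3.62 ± 0.36 (edgeR adjusted p = 2.74e-06), Prf1 by 1.35 ± 0.25 (0.00174) and Gzmb by 1.60 ± 0.39 (0.0113), and Gzmk passed with 0.0106. Gzmk did not pass without the CTLA-4-titled library (0.0802). Gzmc fell by 2.33 ± 0.40 from ILC1 to NK cells (0.000698) and Gzmf fell by 3.92 ± 0.73 (0.0015). NK cells held 0, 0, 5 and 358 Gzmf UMIs, so the size of the Gzmf fold is uncertain. Gzmd (-0.97 ± 0.61, adjusted p = 0.342) and Gzme (-0.52 ± 0.57, 0.627) differed by less than the spread between libraries allowed to call. With cells chosen by marker UMIs alone, without clusters, 3 members passed in place of 6.

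CD8+ T cells and NK cells differed in 7 members, in a comparison where 41.5% of all genes passed (22.9% higher in CD8+ T cells and 18.6% in NK cells). Gzma fell by 5.47 ± 0.38 from NK cells to CD8+ T cells (edgeR adjusted p = 4.38e-09), Gzmc by 2.44 ± 0.40 (8.91e-05) and Prf1 by 1.72 ± 0.25 (2.58e-05). Smaller falls were seen for Gzmb (-1.14 ± 0.38, 0.0214) and Gzmd (-1.63 ± 0.64, 0.0478). The Gzmd fold rests on few NK cells with a Gzmd UMI. Gzmk was higher in CD8+ T cells by 2.59 ± 0.39 (6.97e-05) and Gzmf by 2.63 ± 0.73 (0.0071). The size of the Gzmf fold is again uncertain, for the few Gzmf UMIs of NK cells outside the combination. Without the isotype or without the FcγRII-titled library 4 members passed, and Gzmb, Gzmd and Gzmf were those lost. Gzmf was also lost without the CTLA-4-titled library (0.0527), and Gzmd without the combination library (0.336). Without cells in which macrophage markers took 1% or more of the UMIs, 5 members passed, beside 2250 of 8461 genes.

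Double-positive cells carried the expanded granzymes above NK cells. In a fit of 24 sums that included them, chosen after seeing the data, 4 members were higher in double-positive than in NK cells (11.0% of 9494 genes) and Gzma was lower (10.6%). Gzmc was higher by 2.70 ± 0.41 (edgeR adjusted p = 0.000111), Gzmd by 3.19 ± 0.68 (0.00218), Gzme by 2.75 ± 0.57 (0.00185) and Gzmf by 5.26 ± 1.04 (0.00129). The size of the Gzmf fold is uncertain, for the few Gzmf UMIs of NK cells outside the combination. The Gzmd and Gzme folds rest on few NK cells with a UMI of these genes. Gzma fell by 2.52 ± 0.33 (3.16e-05). Prf1 (-0.10 ± 0.24, 0.817) and Gzmb (-0.43 ± 0.37, 0.446) were not called. The same 5 members were called without any 1 library in turn. Against ILC1, Prf1 (1.25 ± 0.25, adjusted p = 0.0153) and Gzme (2.29 ± 0.54, 0.0491) were higher in double-positive cells, where 0.253% of genes were and 0.463% were lower. Neither passed without the isotype, the FcγRII-titled or the combination library.

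The libraries were compared first in NK and ILC1 cells. Over all NK and ILC1 cells, 5 of the 8 members (Gzmc, Gzmd, Gzme, Gzmf and Prf1) stood higher in the combination than in any of the other 3 libraries, where 24.1% of all genes with 10 CPM or more in a library did. A level at least 2 times that of the isotype library was seen for Gzmd, Gzme and Gzmf and for 1.30% of genes. Gzmd stood at 1292, 1551, 684 and 4633 CPM, which is 3.59 times the isotype value in the combination (95% exact interval 3.45 to 3.72). Gzme stood at 472, 528, 335 and 1393, a ratio of 2.95 (2.77 to 3.14). Gzmf stood at 1055, 1030, 361 and 5171, a ratio of 4.90 (4.71 to 5.11). In all 3 the isotype and both single-antibody libraries lay far below the combination. The intervals cover counting error only, and UMIs of 1 cell are not independent.

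Gzmc in all NK and ILC1 cells was at 12900, 15710, 14190 and 20950, a smaller ratio of 1.62 (1.60 to 1.65). Prf1 was at 1238, 1491, 1093 and 1566, with 1.27 (1.21 to 1.32) over the isotype and 1.05 (1.01 to 1.09) over the CTLA-4-titled library. Gzma went the other way, with 2631, 4272, 2280 and 1794 and a ratio of 0.682 (0.659 to 0.705). Gzmb was at 2077, 3004, 1760 and 2031, a ratio of 0.978 (0.944 to 1.01). The library with both antibodies thus held more of the expanded granzymes and less Gzma in these cells than the isotype library.

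The same 5 members were highest in the combination in double-positive cells, where 20.9% of genes were. There the ratios over the isotype library were 3.11 (2.99 to 3.24) for Gzmd, 2.60 (2.43 to 2.78) for Gzme, 4.47 (4.28 to 4.66) for Gzmf, 1.60 (1.58 to 1.63) for Gzmc and 1.52 (1.44 to 1.61) for Prf1, and Gzmd, Gzme and Gzmf were among the 2.11% of genes at 2 times the isotype level or more. NK cells had 3 members highest in the combination (Gzmc, Gzmd and Gzmf, against 25.8% of genes), and ILC1 had 4 (Gzmc, Gzmd, Gzme and Prf1, against 24.8%). In both, Gzmd, Gzme and Gzmf were the 3 members at 2 times the isotype level or more, as were 5.14% of genes in NK cells and 7.27% in ILC1. Gzmf in NK cells went from 0 UMIs in the isotype and CTLA-4-titled libraries to 445 CPM in the combination, at least 96.1-fold over a floor of 3 counts in the isotype library. Of those 358 UMIs, 68.7% came from 1 cell. Gzmd and Gzme were found in 3 and 2 NK cells of the isotype library and in 17 and 12 of the combination.

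Shares of cells with a UMI do not depend on a few cells with many UMIs. With every cell thinned to 2115 UMIs, 8.54%, 8.84%, 11.1% and 32.1% of all NK and ILC1 cells had a Gzmd UMI, with exact intervals of 5.56% to 12.3%, 6.21% to 12.2%, 7.11% to 16.1% and 27.5% to 36.9%. The combination lay above the other 3, whose intervals overlapped each other. Gzme was found in 6.62%, 6.78%, 6.97% and 24.5%, and Gzmf in 2.65%, 2.74%, 3.58% and 13.6%. Gzmc was found in 42.7%, 36.4%, 50.7% and 53.6%, where the FcγRII-titled library (43.7% to 57.7%) and the combination (48.6% to 58.6%) overlapped. Gzma was found in 62.9%, 71.3%, 55.8% and 49.7%, and Prf1 in 77.1%, 78.9%, 71.9% and 75.7%. Unthinned, a Gzmd UMI was present in 10.0%, 9.67%, 12.9% and 33.0% of cells. Among monocytes and macrophages at the same depth the Gzmd share was 0.0354% to 0.413%.

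**Figure D3:**
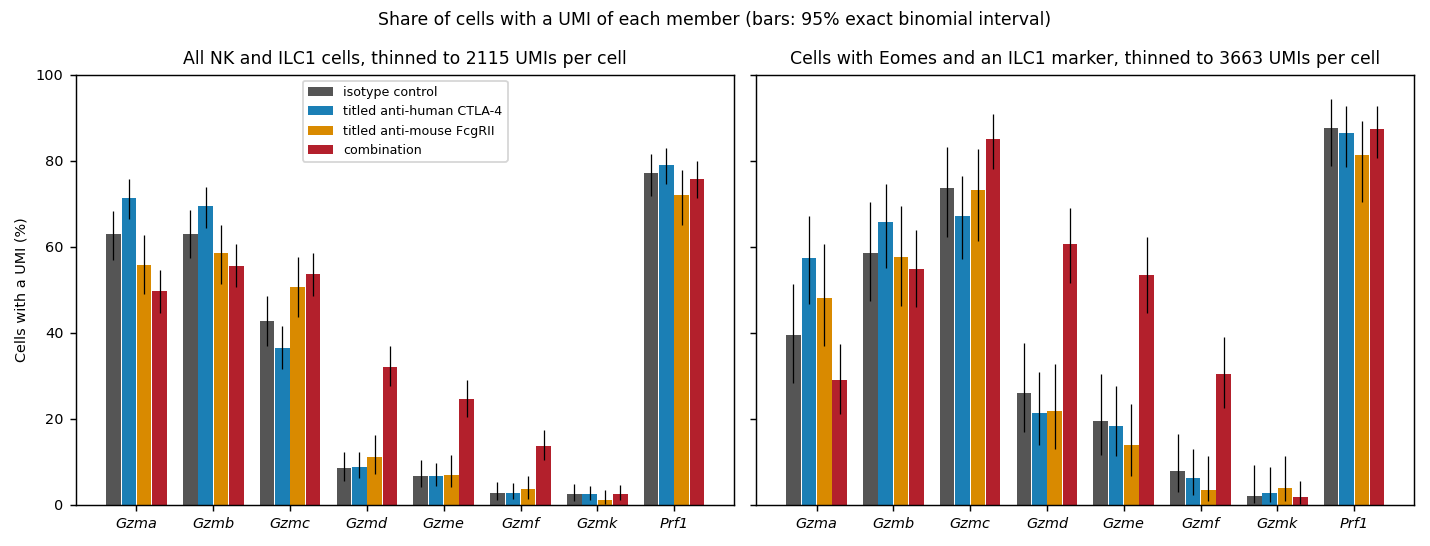
Share of cells with a UMI of each member (percent) in all NK and ILC1 cells and in double-positive cells, each cell thinned to 1 depth, with 1 bar per library and 95% exact binomial bars. Gzmd was found in 60.7% of double-positive cells of the combination and in 21.4% to 25.9% of those of the other 3 libraries.

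In double-positive cells thinned to 3663 UMIs, the Gzmd share was 25.9%, 21.4%, 21.7% and 60.7%, with an interval of 51.5% to 69.0% in the combination. Gzme was found in 19.5%, 18.2%, 13.8% and 53.4%, and Gzmf in 7.84%, 6.12%, 3.39% and 30.3%. Cells with 5 or more of the 8 members made up 16.9%, 13.8%, 16.5% and 52.6% of double-positive cells as deposited, and 7.06%, 6.13%, 9.05% and 23.8% of all NK and ILC1 cells. The 8 members together took 2.76%, 3.84%, 2.30% and 5.28% of the UMIs of double-positive cells.

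Because a deep cell is more likely to show both gate markers, the gates were also set after all NK and ILC1 cells had been thinned to 2115 UMIs, an alternative chosen after seeing the data. Gzmd was then at 286, 176, 225 and 1300 CPM in NK cells, 571, 841, 502 and 3720 in ILC1, and 1640, 966, 443 and 5350 in double-positive cells. The combination was highest in all 3. Double-positive cells then numbered 28.6, 40.5, 20.7 and 34.0 (mean over draws), against 89, 116, 79 and 135 with all UMIs. Gzmc then stood at 12500, 9520, 10300 and 24300 in double-positive cells and at 14200, 13900, 17000 and 22400 in ILC1. Outside the combination, Gzmc was thus lower in these double-positive cells than in ILC1. Cells in which macrophage markers took 1% or more of the UMIs made up 11.2%, 1.42%, 13.4% and 4.39% of all NK and ILC1 cells, and without them the combination to isotype ratio was 3.10 for Gzmd, 2.44 for Gzme, 3.48 for Gzmf, 1.39 for Gzmc and 0.53 for Gzma. Prf1 then had 1.02 and Gzmb 0.807. Without the cell with most UMIs in each library the ratios were 4.60 for Gzmd, 4.16 for Gzme and 11.1 for Gzmf.

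Gzmc, Gzmd and Gzme overlapped within cells, and Gzmf was found in fewer of them. Of the NK and ILC1 cells with a Gzmd UMI, 34 of 34, 41 of 41, 30 of 30 and 138 of 143 also had Gzmc. Of the same cells, 73.5%, 82.9%, 73.3% and 86.0% also had Gzme, against 0 to 1.04% of the cells without Gzmd. Read from Gzmc, 23.8%, 26.6%, 25.4% and 59.7% of the Gzmc-positive cells had Gzmd. Gzmf was found in 17.6%, 17.1%, 30% and 38.5% of the Gzmd-positive and in 6.99%, 7.79%, 10.2% and 26% of the Gzmc-positive cells. In sums over NK and ILC1 cells, Gzme UMIs stood at 0.366, 0.34, 0.49 and 0.301 times the Gzmd UMIs. The part of probes that read a related gene in this overlap was not tested.

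Among CD8+ T cells no member had its highest level in the combination, where 16.9% of genes did. The CTLA-4-titled library was highest for Gzma, Gzmb, Gzmd, Gzme, Gzmf, Gzmk and Prf1, and the FcγRII-titled library for Gzmc. Over the isotype library, the combination had 1.80 times the Gzmb level (1.71 to 1.90), 2.36 times the Gzmd level (1.87 to 3.00), 3.00 times the Gzmf level (2.65 to 3.42) and 1.23 times the Prf1 level (1.12 to 1.35). Gzmd and Gzmf were the 2 members at 2 times the isotype level or more, as were 1.82% of genes. The thinned share of CD8+ T cells with a Gzmb UMI was 36.0%, 52.7%, 47.7% and 54.0%, and the interval of the isotype library (27.5% to 45.6%) lay below that of the combination (47.5% to 60.9%). Macrophage markers took 1% or more of the UMIs in 26.5%, 11.3%, 34% and 21% of the CD8+ T cells, and without those cells the ratio over the isotype library was 1.49 for Gzmb, 1.24 for Gzmd, 3.21 for Gzmf and 1.18 for Prf1. With cells chosen by marker UMIs alone, the ratio of Prf1 turned to 0.921. Without the cells in which macrophage markers took 1% or more, Gzmc went from 0.62 times to 2.49 times the isotype level. In the isotype library 1 cell had given 49.3% of the Gzmc UMIs.

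In conventional CD4+ T cells, Gzme and Gzmf were highest in the combination, both on 4 UMIs or fewer. Of genes with 10 CPM or more in a library, 21.5% were highest there, a set that Gzme (at most 5.25 CPM) and Gzmf (3.94) did not reach. Gzme, Gzmf and Gzma were at 2 times the isotype level or more, as were 4.97% of genes with 10 CPM or more in a library. Gzme had 4 UMIs against 1 in the isotype library and Gzmf 3 against 0, too few to give a size. Gzmb there was 0.284 times the isotype level (0.218 to 0.367), and 60.4% of the isotype UMIs came from 1 cell. Gzmk was 0.254 times the isotype level (0.145 to 0.424), on 19 against 75 UMIs. In Tregs, 1 member, Gzme, was highest in the combination, on 1 UMI. Of genes with 10 CPM or more in a library, 27.9% were highest there, a set that Gzme (at most 7.30 CPM) did not reach. Gzma alone was at 2 times the isotype level or more, as were 7.84% of genes. Gzmb in Tregs of the combination was 0.274 times the isotype level (0.186 to 0.392), on 31 UMIs in 9 cells.

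CD8+ T cells with UMIs of both Pdcd1 and Havcr2, which encode the inhibitory receptors PD-1 and TIM-3, differed from the other CD8+ T cells in the same direction in every library for 7 members. Gzmc was 7.92 to 43.7 times as high, Gzmb 1.88 to 4.52 times and Prf1 1.98 to 4.91 times. The other cells held only 52, 21 and 7 Gzmc UMIs in the isotype, CTLA-4-titled and FcγRII-titled libraries. A single cell gave 51.2% of the Gzmc UMIs of the cells with both receptors in the isotype library and 46.9% in the FcγRII-titled library. Gzme and Gzmf were higher as well, but unevenly: both were close to the other cells in the isotype library (1.64 and 1.14 times), and in the FcγRII-titled library the other cells had 0 UMIs of either against 114 and 941. Gzmd was at 0.792 times in the isotype library and higher in the other 3. Gzma was at 0.375 to 0.461 times and Gzmk at 0.225 to 0.631 times the level of the other cells. The cells with both receptors were deeper, with median UMI counts of 10910 to 20636 against 4392 to 5066, and macrophage markers took 1.16% to 2.64% of their UMIs against 0.202% to 1.03%. The part of these in the result was not tested.

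**Figure D4:**
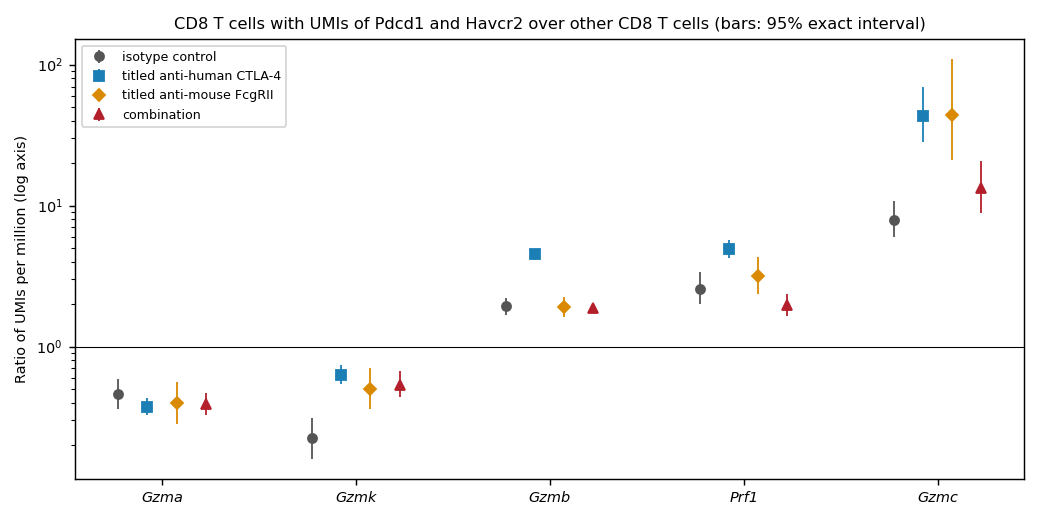
Ratio of the level in CD8+ T cells with Pdcd1 and Havcr2 UMIs to that in other CD8+ T cells (log axis), for the 5 members with UMIs on both sides and 1 direction in all 4 libraries, with 1 symbol per library and 95% exact bars for counting error. Gzma and Gzmk lie below 1 and Gzmb, Prf1 and Gzmc above 1 in all 4 libraries.

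NK and ILC1 cells with 2 or more UMIs of division genes (Mki67, Top2a, Ube2c, Cdk1 and Ccnb2) had less Gzma than the other NK and ILC1 cells, at 0.153 to 0.297 times their level in the 4 libraries. Prf1 was at 0.549 to 0.856 times, and Gzmc at 1.14 to 2.83 times. Gzmd was at 1.03 to 2.08 times, and Gzmb lay on both sides (0.501 to 1.07). The dividing cells were deeper, with median UMI counts of 12768.5 to 14889.5 against 3749.5 to 4798, and the part of depth in these ratios was not tested. In double-positive cells alone Gzma was again lower in the dividing cells of all 4 libraries (0.209 to 0.479 times), whereas Gzmc (0.635 to 1.80) and Gzmd (0.391 to 1.41) were each higher in 1 of the 4. In NK cells alone Gzma was lower in the dividing cells of 3 libraries, with a range of 0.175 to 1.06 times.

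Much of the granzyme RNA lay outside the 5 classes. NK and ILC1 clusters held 55.9%, 87.7%, 84.9% and 80.4% of all Gzmc UMIs of a library. The cluster with T cell and macrophage genes together held 41.9%, 10.9%, 31.1% and 26.3% of the Gzma UMIs and 60.6%, 26.4%, 43.2% and 43.6% of the Gzmk UMIs. That cluster had a median of 29933 UMIs per cell, and its cells were not assigned to a lymphocyte class.

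**Figure D5:**
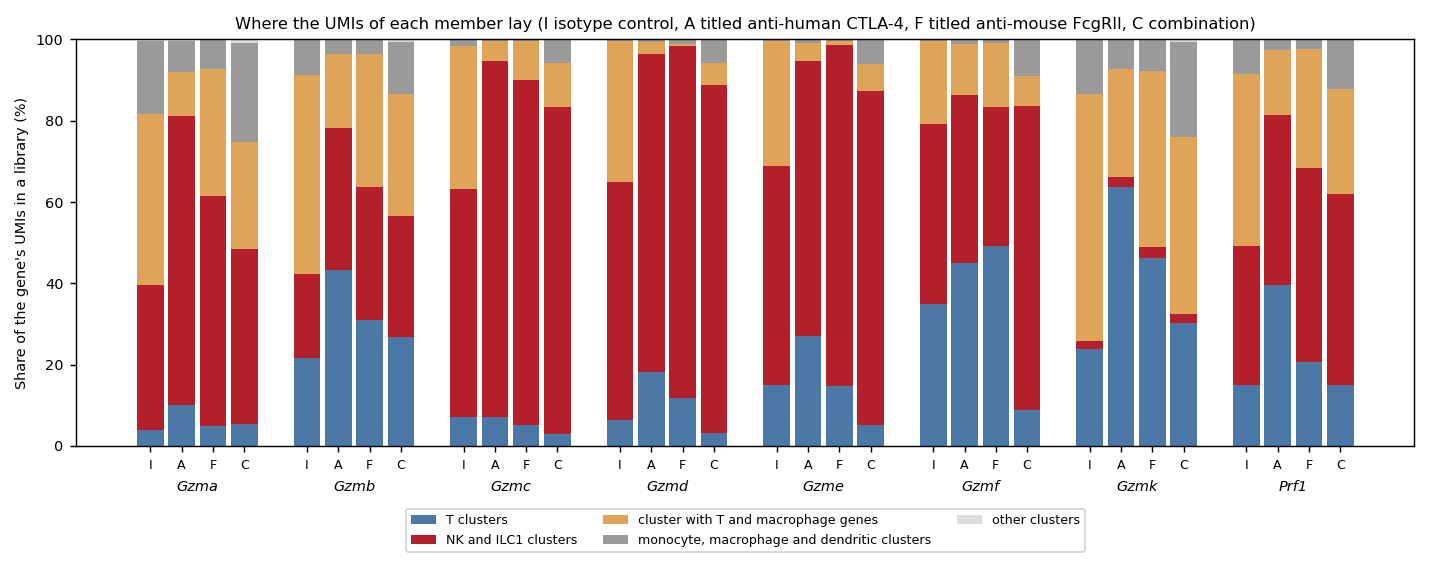
Share of the UMIs of each member (percent of the gene's UMIs in a library) by kind of cluster, with 1 stacked bar per library. NK and ILC1 clusters hold 55.9% to 87.7% of the Gzmc UMIs, while the cluster with T cell and macrophage genes holds 26.4% to 60.6% of the Gzmk UMIs.

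The other granzymes of the files were Gzmg, Gzmn and Gzmm. Gzmg, the neighbour of Gzmd, was at 1330, 727, 221 and 2910 CPM in double-positive cells and at 0 to 204 in ILC1. It was higher in double-positive cells than in NK cells by 5.95 ± 0.63 on the log2 scale (edgeR adjusted p = 2.48e-06) and than in ILC1 by 4.09 ± 0.56 (0.000626). The limit from probes that may read a related gene holds for Gzmg as well. Gzmn did not exceed 3.21 in any class, and Gzmm, which lies on chromosome 10, did not exceed 24.9.

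Of the granule proteins and their processing enzymes, 6 of 8 were higher in CD8+ than in conventional CD4+ T cells (14.5% of all genes were) and none was lower (13.2%), with a list median of 0.67 on the log2 scale against 0.03 over all genes. Cst7, which encodes cystatin F, an inhibitor of granule cathepsins, had the largest difference (2.39 ± 0.25, edgeR adjusted p = 3.05e-06) and the lysosomal membrane gene Lamp2 the smallest (0.38 ± 0.14, 0.0485). Macrophage markers took more of the UMIs of CD8+ T cells (2.09%, 0.916%, 2.36% and 1.60%) than of conventional CD4+ T cells (1.33%, 0.302%, 1.77% and 0.935%), and Lamp2 was at 383, 236, 433 and 341 CPM in CD8+ T cells, lowest in the library with the smallest macrophage share. Their part in these counts was not tested. Between NK cells and ILC1, where 6.05% of genes were higher in NK cells and 5.36% in ILC1, 1 was higher in NK cells (Nkg7, a granule membrane protein, 0.96 ± 0.16, adjusted p = 0.000434) and 1 in ILC1 (Ctsw, encoding cathepsin W, -0.61 ± 0.17, 0.0225). Of the 8 genes of granule release, 2 were higher in CD8+ T cells (14.5% of all genes were), Rab27a (0.54 ± 0.14, 0.00818) and Vamp8 (0.33 ± 0.09, 0.0144).

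Serpins that inhibit granzymes or granule cathepsins were measured by 5 genes. All 5 were higher in CD8+ than in conventional CD4+ T cells (14.5% of all genes were), from 0.57 ± 0.19 for Serpinb6a (edgeR adjusted p = 0.0347) to 5.13 ± 1.18 for Serpinb9b (0.00366). In NK cells, 3 of the 5 were higher than in ILC1 (6.05% of all genes were), Serpinb9b the most (2.70 ± 0.52, adjusted p = 0.00188). Serpinb6a was lower in NK cells (5.36% of all genes were), by 1.67 ± 0.23 (8.65e-05). The list median was 1.03.

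Of 5 other killing ligands and cytokines, 3 were higher in CD8+ than in conventional CD4+ T cells (14.5% of all genes were), among them the chemokine gene Xcl1 (3.05 ± 0.45, edgeR adjusted p = 9.34e-05) and Tnf (0.87 ± 0.28, 0.0274). NK cells had more Ifng (1.93 ± 0.49, 0.0146) and Fasl (0.88 ± 0.18, 0.00361) than ILC1, where 6.05% of all genes were higher in NK cells and 5.36% in ILC1. Tnfsf10, which encodes the death ligand TRAIL, fell by 1.91 ± 0.19 from ILC1 to NK cells (3.54e-06). Beside the same shares, 2 of 8 transcription factors were higher in NK cells and 1 in ILC1, and Zfp683, which encodes Hobit, fell by 3.42 ± 0.48 from ILC1 to NK cells (0.000108). Of 9 cytokine receptor genes, 3 were higher in NK cells and Il2ra in ILC1 (-1.74 ± 0.42, 0.0107), beside these shares again. Against conventional CD4+ T cells, CD8+ T cells had 2 of these receptors and 2 of the transcription factors higher, and 1 and 2 lower. Of all genes, 14.5% were higher and 13.2% lower in that comparison. Tcf7, a factor of less differentiated T cells, fell by 2.00 ± 0.28 (edgeR adjusted p = 7.14e-05).

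These counts stand beside shares of all genes of 5.78% higher and 5.94% lower in Tregs than in conventional CD4+ T cells, 22.9% higher and 18.6% lower in CD8+ T cells than in NK cells, and 11.0% higher and 10.6% lower in double-positive than in NK cells. Against conventional CD4+ T cells, Tregs had 2 granule proteins higher and 2 lower, 2 genes of granule release higher and 1 lower, and 1 granzyme inhibitor higher and 1 lower. Of the ligands and cytokines 2 were lower in Tregs, of the transcription factors 1 was higher and 4 lower, and of the receptors 1 was higher and 3 lower. CD8+ T cells had 4 granule proteins higher than NK cells and 2 lower, 1 gene of granule release in each direction, and 1 granzyme inhibitor higher and 4 lower. They had 3 ligands and cytokines higher and 2 lower, 1 transcription factor higher and 5 lower, and 2 receptors higher and 6 lower. Macrophage markers took 0.916% to 2.36% of the UMIs of CD8+ T cells and 0.124% to 0.681% of those of NK cells. Their part in these counts was not tested. Double-positive cells had 3 granule proteins higher than NK cells and 1 lower, and 1 granzyme inhibitor higher and 3 lower.

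Across the 20 sums of 5 classes and 4 libraries, the gene whose log2 level was most like that of Gzmd among 9139 genes was Gzme (Pearson r = 0.952). For Prf1 these were Cst7 (0.948), B4galt5 (0.946) and Setbp1 (0.943). Gzma was most like Rasl12 (0.942), Ugcg (0.94) and S1pr5 (0.94), a receptor for NK cell egress. Gzmc was most like Parp8 (0.946), Padi2 (0.942) and Ctsw (0.94). Gzmb was closest to Prf1 (0.869). The highest values for Gzmf (L3mbtl2, 0.842) and Gzmk (Gpm6b, 0.819) were lower. The 20 sums share libraries, so these correlations only describe likeness across classes. The part of probes that read a related gene in the likeness of Gzmd and Gzme was not tested.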

How the data were processed

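The files are filtered matrices of UMI counts, 1 per library, deposited by the authors as whole, unnormalized counts made with Cell Ranger on mm10 (version 7.0.0 in the submitters' processing notes, 7.2.0 in the matrix headers). Each library pools the tumors of 11 mice, so no comparison between treatments has replicates. The records and the article differ in details of the experiment, and the records were followed. For both single-antibody libraries, title and treatment field disagree, and the group was taken from the title.

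Cells with under 500 genes or over 10% mitochondrial UMIs were left out. An automatic doublet caller marked 1 to 3 cells per library and was not relied on. Instead, 5% of cells, those scoring highest as doublets, were removed. Cells were integrated and clustered with Seurat 5.3.0 (sctransform 0.4.2, 3000 variable features without granzyme and perforin genes, 30 components, resolution 0.8). A cluster was assigned to a lineage where the median of its marker list reached 200 counts per 1000000 (CPM); these limits, the mixed cluster and the double-positive class were set after seeing the clusters. The members, gene lists and named genes were chosen with earlier results of these data known. All 8 members are named in every class. Of each further list, all genes are counted, and those named passed the test with the largest or smallest fold, at most 4 per list. Tnfsf10 falls outside this rule and was chosen after its values were seen. For likeness, the 3 genes with the highest Pearson r of log2(CPM + 1) were ranked.

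Levels are summed UMIs of a class as CPM with exact Poisson intervals, and ratios carry exact conditional intervals. Shares are means of 100 draws in which each cell was thinned to the 10th percentile of UMIs of its class, with shallower cells left out, and have exact (Clopper-Pearson) 95% binomial intervals. All intervals and the floor of 3 counts cover counting error only. Classes were compared on sums per class and library with edgeR 4.0.16 (quasi-likelihood, TMM, filterByExpr, library as block, Benjamini-Hochberg threshold 0.05). The standard error (SE) printed with a fold is the absolute log2 fold divided by the square root of its F statistic. DESeq2 1.42.0 was an alternative. The fit was tested on simulated data. Other analyses used R 4.3.3, Python 3.11.15 and scipy 1.17.1. The p-values measure how a class difference varies between the 4 libraries. Pools of mice and treatments cannot be told apart in that variation. Promoter windows came from RefSeq (GRCm38.p6), and gene positions and coding sequences from GENCODE (GRCm38).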

Additional observations from a re-analysis of the deposited data

Results flagged for a closer look

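Several members moved in opposite directions between classes when the combination was set over the isotype library, and none of these differences was tested, since each treatment has 1 library. Gzma was 4.24 times the isotype level in Tregs, on 9 cells in the combination, and 0.554 times in ILC1, but with cells chosen by markers alone the Treg value was 0.654. Gzmb was 1.80 times the isotype level in CD8+ T cells and 0.274 times in Tregs. Gzmc was 1.91 times in NK cells and 0.147 times in Tregs, the latter on 2 UMIs in the combination and at 17.4 times with cells chosen by markers alone. Gzmk was 1.58 times in CD8+ T cells and 0.254 times in conventional CD4+ T cells, but the CD8+ T cell value was 0.886 with cells chosen by markers alone, 0.996 without macrophage-rich cells and 0.945 with a mean over cells. Prf1 was 1.52 times in double-positive cells and 0.836 times in NK cells, and 1.00 in NK cells taken by cluster.

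Monocytes and macrophages, taken with the dendritic clusters, are not a class of this comparison. In the combination they held UMIs of 5 granzymes at 2 times their level in the isotype library or more. In the combination they had 45.9 Gzmc, 9.80 Gzmd, 3.22 Gzme, 19.5 Gzmf and 3.37 Gzmk UMIs per 1000000 UMIs, against 7.79, 0.218, 0.0947, 0.265 and 1.41 in the isotype library. Gzma was at 31.2 in the isotype library and 32.2 in the combination. Gzmb (27.66) and Prf1 (12.85) were also highest in the combination, at less than 2 times their isotype level. Lymphocyte markers in the same cells went both ways between the isotype library and the combination. Higher in the combination were Cd8a (4.97 and 12.6), Cxcr6 (5.43 and 15.6), Itga1 (12.1 and 24.9) and Cd3e (22.7 and 28.2). Lower were Cd4 (11.7 and 8.57), Foxp3 (6.77 and 0.659), Klrb1c (4.08 and 3.72) and S1pr5 (4.03 and 2.76), and Ncr1 was at 5.85 and 6.66. The part of lymphocyte RNA in the granzyme values was not tested. A single cell gave 75.8% of the Gzmd, 73.2% of the Gzme and 79.3% of the Gzmf UMIs of the combination, and without the top cell of each gene Gzmc was at 29.8, Gzmd at 2.39 and Gzmf at 4.06.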

How the results depend on the processing

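With 1 library per treatment, the depth and the number of cells limit every value between libraries, and 9 Tregs in the combination limit that class most. In all NK and ILC1 cells, 5 members were highest in the combination without macrophage-rich cells and without the top cell, and 4 with a mean over cells and with clustering without integration. The number of members highest in the combination moved to 1 in CD8+ T cells with a mean over cells, to 4 in conventional CD4+ T cells and 4 in Tregs with cells chosen by markers alone, to 4 in conventional CD4+ T cells and 2 in ILC1 without macrophage-rich cells, to 1 in conventional CD4+ T cells at resolution 0.4, to 0 in Tregs without integration, to 2 in Tregs with a mean over cells and to 5 in NK cells with gates after thinning. By share of cells with 3 UMIs or more, it was 1 in conventional CD4+ T cells and 0 in Tregs. With cells chosen by markers alone, 3 members differed between NK cells and ILC1, 4 between CD8+ T cells and NK cells, 5 between CD8+ and conventional CD4+ T cells (7 in the report), 2 between Tregs and conventional CD4+ T cells (3), and 1 between double-positive cells and ILC1, where RLE factors also gave 1 and no library block gave 0. Without the block, 5 members differed between CD8+ and conventional CD4+ T cells and 5 between CD8+ T cells and NK cells. Leaving out 1 library gave 4 to 7 members between CD8+ T cells and NK cells and 0 to 3 between double-positive cells and ILC1. Ratios over the isotype library changed side with cells chosen by markers alone for Gzmk (0.886) and Prf1 (0.921) in CD8+ T cells, Gzmc in conventional CD4+ T cells (4.33), and Gzma (0.654) and Gzmc (17.4) in Tregs, and the Treg to conventional CD4+ T cell difference of Gzmc became 0.93 on the log2 scale. They did so without macrophage-rich cells for Gzmc (2.49) and Gzmk (0.996) in CD8+ T cells, Gzmc in conventional CD4+ T cells (3.94) and Gzmb in double-positive cells (0.725, and 0.964 at resolution 0.4). With a mean over cells this held for Gzmc (1.04) and Gzmk (0.945) in CD8+ T cells, Gzmc in conventional CD4+ T cells (1.10) and Prf1 in all NK and ILC1 cells (0.997), and with NK cells taken by cluster for Gzmb (1.02) and Prf1 (1.00). The causes were not tested. Of the log2 differences between classes, 427 values were rated the same, 42 lost the call, 10 gained it and 1 reversed. A turned sign was rated as reversed only where the main or the alternative fit called the gene. An uncalled value whose sign turned was rated the same. The ratios of the combination to the isotype library were rated by another rule, in which a change of size alone could count as moved. Of these, 337 values were rated the same, 166 moved and 16 reversed, which cannot be compared with the counts of the log2 differences.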
